A study of Bos taurus with 24 samples.

Results

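CRH encodes corticotropin-releasing hormone, and it was read here as 1 of the 11306 entries in an expression table of bovine oocytes. The entry was taken by its gene symbol and lies on the minus strand of UMD3.1.1 at chr14:32213513-32215195, a span of 1683 bases. CRH was selected on its measured difference between summer and spring in MII oocytes of these same libraries, so that difference is described below and not tested. The other comparisons of CRH were tested, and those between stages share their MII libraries with that choice.

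RNA was measured in 24 libraries of oocytes from Angus-based crossbred, non-lactating beef cows without a designed treatment. Spring stands for May and summer for July, and each season had 6 libraries of germinal vesicle (GV) oocytes, which are arrested before the first meiotic division, and 6 of metaphase II (MII) oocytes. GV oocytes were aspirated from follicles, MII oocytes were obtained from them by maturation in vitro, and cumulus cells were stripped from both. By the methods of the study each library was a pool of 4 oocytes from 1 cow, while the sample labels speak of individual cells and do not tie a library to a cow. The same group of cows was sampled in both seasons and gave both stages. Libraries of different groups can therefore share a cow, and the tests took them as independent. Season stands for 1 month of collection per group, and the MII values describe oocytes matured in culture.

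The hypothalamus is the best known source of CRH, which acts on the pituitary to release corticotropin (ACTH), cut from the precursor POMC, and ACTH drives the adrenal gland to make glucocorticoids. CRH is made as a prohormone, trimmed by convertases, packed in granules and bound by G protein-coupled receptors or held back by a soluble binding protein. CRH and its receptors are also known from reproductive tissues, the ovary among them. A transcript in an oocyte says nothing of whether the peptide is made or released.

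CRH was over 1 FPKM (a fragment count scaled for the length of the exons and for the size of the library) in 24 of 24 libraries, from 10.9 to 63.0 with a mean of 32.5 FPKM. In spring GV oocytes, replicates 1 to 6 had CRH levels of 25.3, 44.3, 10.9, 25.6, 29.5 and 52.7 FPKM. In summer GV oocytes the levels were 28.9, 33.3, 43.1, 22.4, 22.3 and 27.9 FPKM. All 6 summer GV libraries lay inside the range of the spring GV libraries.

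Spring MII oocytes held CRH at 49.5, 23.6, 56.3, 52.0, 34.3 and 63.0 FPKM in replicates 1 to 6. Summer MII oocytes held it at 37.8, 17.0, 24.7, 23.7, 13.1 and 19.9 FPKM. The 4 highest spring MII libraries stood above every summer MII library, and 3 summer MII libraries stood below every spring MII library. The ranges overlapped between 23.6 and 37.8 FPKM, where spring MII replicates 2 and 5 and summer MII replicates 1, 3 and 4 lay.

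**Figure D1:**
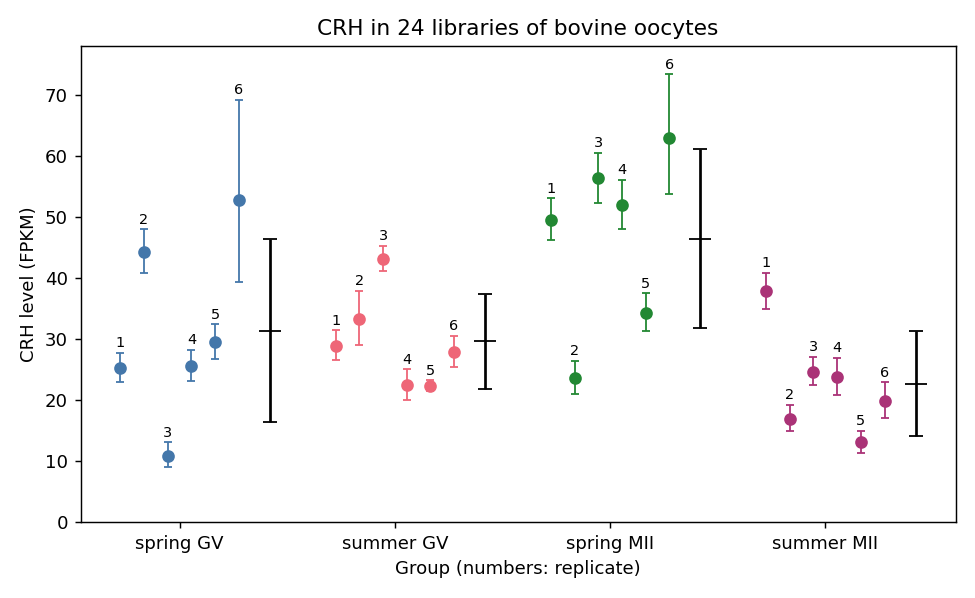
CRH level in FPKM (vertical axis) in each library, by group, with the replicate number above each point; bars on points are 95% Poisson counting intervals, and the black mark beside each group is its mean with 1 SD (n = 6). Spring MII libraries reach 63.0 FPKM, summer MII libraries lie between 13.1 and 37.8 FPKM, and the summer GV libraries lie inside the range of the spring GV libraries.

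By group mean, the order was spring MII (46.4 ± 14.7 FPKM, SD, n = 6), spring GV (31.4 ± 14.9 FPKM, SD, n = 6), summer GV (29.7 ± 7.80 FPKM, SD, n = 6) and summer MII (22.7 ± 8.56 FPKM, SD, n = 6). By median the GV groups changed places, at 27.6 FPKM in spring and 28.4 FPKM in summer. No pair of neighbours in this order met the call rule at the study's thresholds, as the tests below show. In these pools a smaller share of RNA and fewer oocytes with the transcript cannot be told apart.

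The rank of CRH among the 11306 entries ran from 203 in spring MII replicate 4 to 858 in spring GV replicate 3. The median rank was 214.5 in spring MII, 439 in summer GV, 449.5 in spring GV and 521 in summer MII. At its lowest rank, 7.58% of entries stood above CRH.

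CRH levels fell on whole multiples of a single step within each library, with a largest distance of 0.00267 from a whole number, which gives the smallest number of fragments that fits each value. These numbers ran from 52 in spring GV replicate 6 to 2538 in summer GV replicate 5. Counting alone gives a coefficient of variation of 1.98% to 13.9%, and the libraries of a group varied by 26.3% to 47.6%. The counting value leaves out the copies that amplification adds.

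The spread of CRH was not unusual for its level. On the log2(FPKM + 1) scale its SD was 0.76 in spring GV, where the median of the 357 genes at a mean of 20 to 50 FPKM was 0.64. The SD was 0.35 against 0.44 in summer GV, 0.52 against 0.48 in spring MII and 0.50 against 0.55 in summer MII.

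The relative depth of the libraries, taken from the same steps with spring GV replicate 1 set to 1, ran from 0.542 to 6.51 in 21 libraries, and fell lower in the other 3, to 0.393 in replicate 2 of summer GV, 0.149 in replicate 6 of spring MII and 0.0565 in replicate 6 of spring GV. By the alignment summary of the study these 3 also had the lowest shares of mapped reads. Both libraries numbered 6 had the highest CRH of their group, and the part of depth or mapping in those levels was not tested. Without replicate 6 the mean CRH level was 27.1 ± 11.9 FPKM (SD, n = 5) in spring GV and 43.1 ± 13.7 FPKM (SD, n = 5) in spring MII. Across libraries, Pearson's r between log2 CRH and log2 relative depth was -0.31 over 24 libraries and 0.08 over the 21 others, as a description of points that share their scaling.

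Of the 18 oocyte markers, 12 were in the table. All 12 were over 0.1 FPKM in every GV and every summer MII library, and 11 of the 12 in every spring MII library. OOEP, a subunit of the subcortical maternal complex, averaged 545 FPKM over 24 libraries, the oocyte growth factor GDF9 averaged 124 FPKM, and the maternal effect gene ZAR1 averaged 99.7 FPKM. CRH stood below each of these means. The label of the samples as oocytes was thus met by these defining genes.

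Of the 27 cumulus and granulosa markers, 24 were in the table, and their summed level ran from 38.4 to 591 FPKM in spring GV, 34.3 to 126 FPKM in summer GV, 35.4 to 163 FPKM in spring MII and 27.9 to 85.9 FPKM in summer MII. The highest 3 by mean were the keratins KRT8 (27.2 FPKM) and KRT18 (22.6 FPKM) and the steroidogenic regulator STAR (24.3 FPKM). FSHR and AMHR2, receptors of the granulosa lineage, were at the table's lowest value of 0.01 in every MII library, and CYP19A1, the aromatase gene, reached 0.0687 FPKM at most. Spring GV replicate 3 had both the lowest CRH (10.9 FPKM) and the highest VIM (75.7 FPKM) and INHA (37.2 FPKM), at a summed marker level of 189 FPKM. Spring GV replicate 6 had the highest sum, with KRT18 at 392 FPKM. The part of other cells in the CRH levels was not tested. Blood and theca markers, of which 10 of 12 were in the table, summed to 1.92 to 33.2 FPKM, with the leukocyte gene PTPRC never over 0.0174 FPKM.

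The first question was whether the season of collection went with the level of CRH in immature oocytes. The GV libraries were not part of the contrast from which CRH was chosen, though earlier results of these data were known. The season difference in GV oocytes did not pass the test. In summer GV oocytes CRH differed from spring GV oocytes by 0.03 on the log2 scale (SE 0.34, 95% interval -0.69 to 0.76), and the limma p was 0.920 with an adjusted p of 1. Summer libraries were higher in 16 of 36 pairs of a summer and a spring library. An exact two-sided permutation test over 924 assignments gave p = 0.920, or 0.920 after Benjamini-Hochberg adjustment over the 3 comparisons so tested, where 0.00216 was the smallest p it could give. With an interval this wide, equal levels were not shown. The sign of this small difference changed with the scaling, from 0.03 to -0.12 with median-of-ratios scaling. Without spring GV replicate 3 the difference was -0.22. Over all genes, 3 of 9526 (0.0315%) were called, which took a fold change over 2 together with a limma p under 0.05 before adjustment.

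In MII oocytes, the contrast from which CRH was chosen, the summer mean was 0.488 times the spring mean. The fitted difference was -1.01 on the log2 scale (SE 0.29, which does not allow for that choice), and 9 of the 9526 entries tested had a lower one. Summer libraries were higher in 4 of 36 pairs. This difference was close to 2-fold. With each of the 12 libraries dropped in turn it lay between -1.18 and -0.87, and 7 of these 12 fits were under 2-fold. In 3 of 10 other settings the change was also under 2-fold. It was -0.96 with quantile normalization, -0.91 with median-of-ratios scaling and -0.91 without the shallow library. This last fit is the one without spring MII replicate 6, already among the 12. The filters, the fit of all 4 groups, the replicate block and another moderation of the variances cannot by construction move this difference.

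The second question was how CRH changed as GV oocytes became MII oocytes. These comparisons share the MII libraries with the contrast that chose CRH. The direction and size of each, and its limma and permutation p values, are therefore not independent of that choice. In spring, MII oocytes were higher than GV oocytes by 0.63 on the log2 scale (SE 0.36, 95% interval -0.15 to 1.41), with a limma p of 0.104 and an adjusted p of 0.214. MII was higher in 27 of 36 pairs, and the exact permutation p was 0.110, or 0.198 adjusted. In summer, the difference of MII from GV was -0.41 (SE 0.25, 95% interval -0.95 to 0.13), with a limma p of 0.127 and an adjusted p of 0.235. MII was higher in 9 of 36 pairs, and the exact permutation p was 0.132, or 0.198 adjusted. Neither met the call rule at the study's thresholds, in a setting where 11.8% of entries were called in spring and 11.5% in summer.

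Over both seasons together, which cancels the season difference within MII, CRH differed between MII and GV oocytes by 0.11 on the log2 scale (SE 0.22, 95% interval -0.35 to 0.57). The limma p was 0.627 and the adjusted p 0.696. The sign turned without spring GV replicate 3, where the difference was -0.02. By contrast, 4573 of 9526 entries had an adjusted p under 0.05 in this fit, so the table held many stage differences while that of CRH did not pass.

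The change from GV to MII was lower in summer than in spring by 1.04 on the log2 scale, with 36 entries lower still. This value contains the contrast that chose CRH and was not tested.

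**Figure D2:**
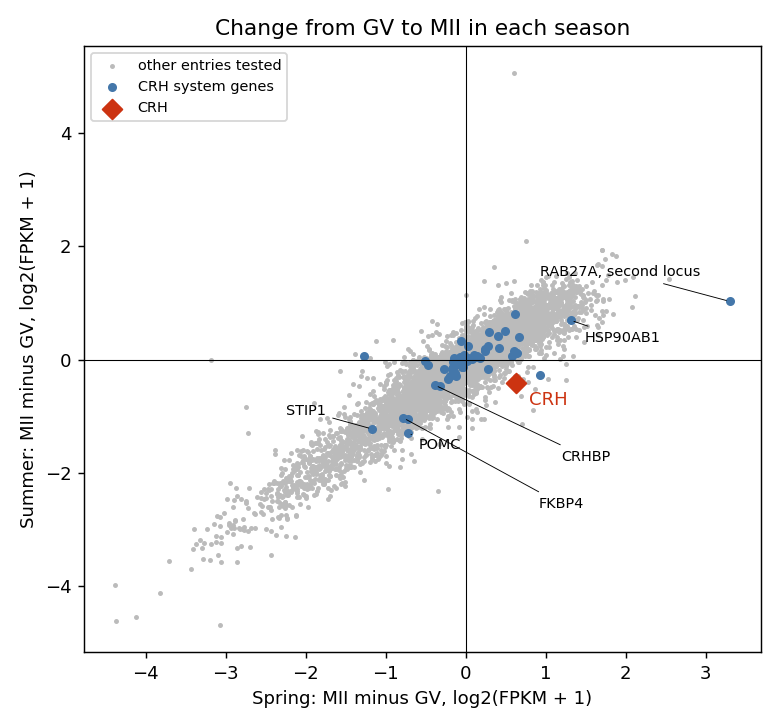
Change from GV to MII oocytes on the log2(FPKM + 1) scale in spring (horizontal axis) and in summer (vertical axis), one point per entry tested (9526), with CRH system genes in blue and CRH in red. CRH sits at 0.63 and -0.41, at the lower right edge of a cloud of points that mostly moved the same way in both seasons.

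The CRH system was read through lists of 104 genes, of which 77 symbols were in the table, at 78 entries, and 61 entries had a value over 0.1 FPKM in at least 1 library and were tested. In the season comparisons 0 of 61 were called in GV oocytes, with 2 at an unadjusted limma p under 0.05, and 0 of 61 in MII oocytes, with 1. Over all entries 0.0315% and 0.042% were called and 1.55% and 2.11% had such a p, so 0 calls is near the background. In the stage comparisons 3 of 61 (4.92%) were called in each season, against 11.8% of all entries in spring and 11.5% in summer. In spring 2 were higher and 1 was lower in MII, where 3.57% and 8.25% of all entries were called in those directions, and in summer 0 were higher and 3 were lower, where 2.2% and 9.26% were. The median stage difference of the 61 was -0.03 in spring and -0.01 in summer on the log2 scale, as for all entries (-0.03 and -0.02). Most members were so low that the added 1 of the log scale limits their fold change, and with 0.1 added instead 12 of 61 were called in spring and 10 of 61 in summer, against 27.6% and 26.5% of all entries.

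Among the ligands, UCN, UCN2 and UCN3 were not analysed here, which leaves CRH as the family member described. Of the receptors, CRHR1 was not analysed here. CRHR2, which binds urocortins more tightly than CRH, ran from 0.01 to 0.0719 FPKM and never passed the 0.1 filter. The lowest CRH level of any library, 10.9 FPKM, was thus far above the highest of this receptor.

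CRHBP, the soluble protein that binds CRH and keeps it from its receptors, was present at low levels in 24 of 24 libraries. It ran from 0.866 to 1.82 FPKM (median 1.40) in spring GV and from 0.813 to 1.79 FPKM (median 1.36) in summer GV. In MII oocytes it ran from 0.587 to 1.30 FPKM (median 0.738) in spring and from 0.426 to 0.988 FPKM (median 0.663) in summer. The GV and MII ranges overlapped in both seasons, with the medians lower in MII. The stage difference was -0.39 in spring (SE 0.16, limma adjusted p 0.0912) and -0.45 in summer (SE 0.16, limma adjusted p 0.04999), each under 2-fold and so not called. Over both seasons it was -0.42 (SE 0.11, limma adjusted p 0.00253). Between seasons CRHBP differed by -0.03 in GV and -0.10 in MII oocytes, with adjusted p values of 1.

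Enzymes that cut and finish prohormones were low. Of 13 listed genes 8 were in the table and 7 were tested, and 0 of 7 were called between seasons or between stages, too few to set against the 11.8% and 11.5% of all entries called between stages. The median stage difference was -0.13 in spring and 0.01 in summer. The granule list had 12 entries in the table and 8 tested, with 1 of 8 called in spring and 1 of 8 over both seasons together, where 11.8% and 11.5% of all entries were called. That entry was, both times, the second of 2 loci named RAB27A, a small GTPase of vesicle docking, which was called higher in spring MII oocytes (limma adjusted p 0.0232). It was at the lowest value of 0.01 in all 6 spring GV libraries and from 0.01 to 68.3 FPKM in spring MII, so no fold change is given. In every library only 1 of the 2 entries was over 0.1 FPKM, and the cause was not tested, so this call is uncertain.

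Downstream of a CRH receptor, the stimulatory G protein raises cyclic AMP. GNAS, which encodes the alpha subunit of that G protein, had medians of 0.165, 0.147, 0.176 and 0.125 FPKM in spring GV, summer GV, spring MII and summer MII. Its stage difference was -0.08 in spring and 0.05 in summer, with limma adjusted p values of 0.781 and 0.605. Of the 24 signalling genes listed, 21 were in the table and 13 were tested, and 0 were called between seasons or stages. Of the 19 transcription factors and cofactors listed as regulators of the CRH gene, 16 were in the table and tested, and 0 were called likewise. The shares of all entries called were again 11.8% and 11.5% between stages and 0.0315% and 0.042% between seasons.

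POMC, the precursor of ACTH, was the most abundant gene of the ACTH and melanocortin list. It ran from 0.466 to 26.6 FPKM (median 10.5) in spring GV and from 3.58 to 16.1 FPKM (median 12.8) in summer GV. In MII oocytes it ran from 2.34 to 7.23 FPKM (median 5.10) in spring and from 1.51 to 7.90 FPKM (median 3.79) in summer. POMC was lower than CRH in 24 of 24 libraries. In summer it fell by 1.30 on the log2 scale from GV to MII (SE 0.38, limma adjusted p 0.0222), while in spring the difference was -0.73 (SE 0.56, limma adjusted p 0.351). The difference between the seasons in this change did not reach a limma adjusted p under 0.05 for POMC.

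At the end of the axis stand the glucocorticoid receptor and its chaperones. NR3C1, the receptor gene, had group medians of 0.0675 to 0.111 FPKM, and 9 of 24 libraries were over 0.1 FPKM. Its stage difference was -0.02 in spring and 0.08 in summer, with limma adjusted p values of 0.647 and 0.0817. STIP1, a co-chaperone between the chaperones HSP70 and HSP90, had medians of 3.64 and 4.69 FPKM in spring and summer GV and of 1.13 and 1.12 FPKM in spring and summer MII. It fell from GV to MII in spring by 1.17 (SE 0.25, limma adjusted p 0.00574) and in summer by 1.22 (SE 0.19, limma adjusted p 0.00044). FKBP4, an immunophilin of the receptor complex, fell by 1.03 in summer (SE 0.36, limma adjusted p 0.0456). In summer GV its median was 1.43 FPKM, with 7.97 FPKM in replicate 2, a shallow library. The spring difference of FKBP4 was -0.78 (SE 0.20, limma adjusted p 0.0140), under 2-fold. HSP90AB1, an HSP90 chaperone, was called higher in spring MII oocytes by 1.31 (SE 0.59), although its limma adjusted p was 0.116. The summer difference of HSP90AB1 was 0.69 (limma adjusted p 0.315). Its spring medians were 17.8 FPKM in GV and 55.6 in MII, with 178 and 181 FPKM in the shallow replicates 6.

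Peptide hormone precursors gave CRH a frame of its own kind. Of 88 listed genes other than CRH, 50 were in the table. By mean FPKM over 24 libraries the order was the entry named TRH (108), CRH (32.5), ADM (26.0), POMC (8.46), MLN (6.42) and OXT (5.82), and 11 of the 50 had a mean of at least 1 FPKM. CRH was the highest of all in 16 libraries, the second in 3 and lower in 5. The TRH entry was between 0.01 and 0.1 FPKM in 12 libraries and reached 652 FPKM in another. It lies on chromosome 20 with a span of 350 bases, whereas the RefSeq gene table of a later assembly places TRH on chromosome 22, so its name is uncertain. Without that entry CRH was the highest in 19 libraries, the second in 4 and lower in 1.

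**Figure D3:**
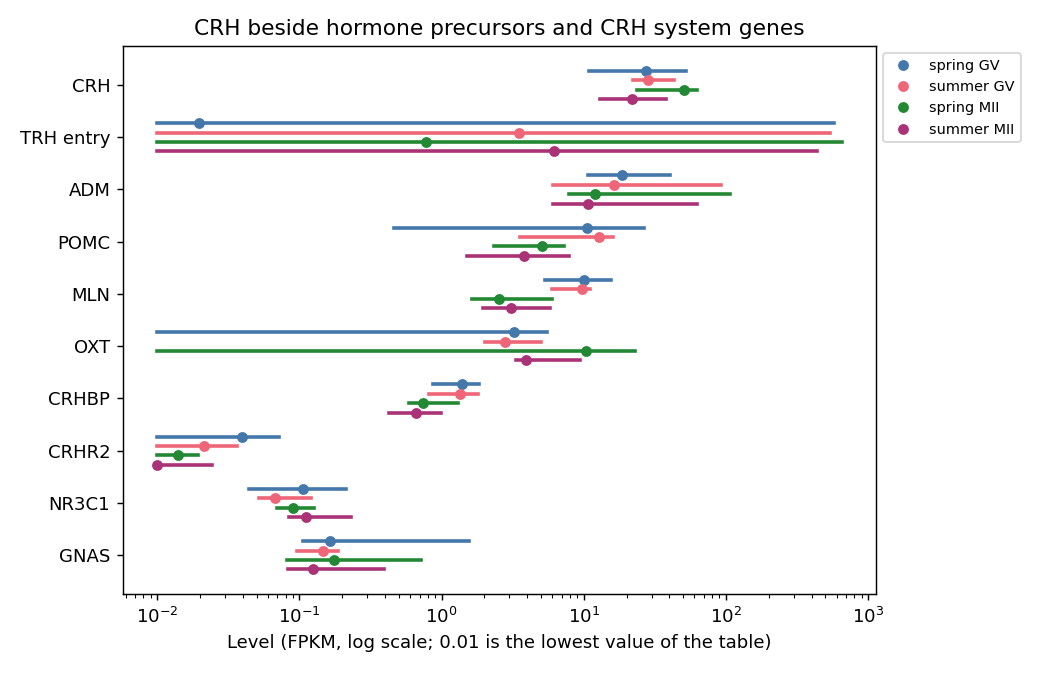
Level in FPKM (log axis) of CRH, of the next 5 peptide hormone precursors by mean level and of CRHBP, CRHR2, NR3C1 and GNAS; for each gene and group a line joins the lowest and highest of 6 libraries and the point is the median. CRH lies between 10.9 and 63.0 FPKM, the TRH entry spans the table from 0.01 to 652 FPKM, and CRHR2 stays under 0.1 FPKM.

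ADM, the precursor of the vasodilator adrenomedullin, had medians of 18.7 FPKM in spring GV, 16.4 in summer GV, 12.01 in spring MII and 10.7 in summer MII, and it was lower than CRH in 19 of 24 libraries. Its stage differences were -0.08 in spring and -0.19 in summer (limma adjusted p values of 0.922 and 0.862). MLN, the precursor of the gut hormone motilin, fell from GV to MII in both seasons, by 1.48 in spring (SE 0.29, limma adjusted p 0.00320) and by 1.22 in summer (SE 0.22, limma adjusted p 0.00129). Its GV libraries ran from 5.31 to 15.6 FPKM in spring and its spring MII libraries from 1.64 to 5.93 FPKM. OXT, the oxytocin precursor, had a median of 10.3 FPKM in spring MII and of 3.23, 2.77 and 3.94 FPKM in spring GV, summer GV and summer MII. Its stage difference was 1.38 in spring (SE 0.70, limma adjusted p 0.164) and 0.54 in summer (SE 0.28, limma adjusted p 0.160), so neither passed.

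Of the 46 precursors tested, 0 were called between seasons in GV and 0 in MII oocytes, with 2 and 1 at an unadjusted limma p under 0.05, where 0.0315% and 0.042% of all entries were called and 1.55% and 2.11% had such a p. In the stage comparisons 1 of 46 (2.17%) was called in spring and 2 of 46 (4.35%) in summer, all lower in MII, against 8.25% and 9.26% of all entries called lower. The median stage difference of the 46 was 0.01 in both seasons, beside -0.03 and -0.02 over all entries.

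The genomic surroundings of CRH were mostly quiet or unlike it. TRIM55, a muscle ring finger gene, ends 1749 bases from the CRH entry at lower coordinates and never rose over 0.0458 FPKM. The next entry in the other direction, RRS1, a ribosome assembly factor, starts 484164 bases away and averaged 25.2 and 32.9 FPKM in spring and summer GV and 9.01 and 10.2 FPKM in spring and summer MII. On the log2 scale its Pearson's r with CRH over 24 libraries was -0.04. For ARMC1, MTFR1, ADHFE1 and C14H8orf46, the remaining neighbours taken, r ran from -0.36 to 0.16. A single entry, POLR2K, overlaps CRH because its listed span is very long (42680127 bases), and it never rose over 0.0143 FPKM. The library kit did not mark the strand.

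Among the 3664 genes with a mean of at least 1 FPKM, the pattern most like that of CRH over the 24 libraries was that of PPP1R35, a regulatory subunit of protein phosphatase 1, with Pearson's r of 0.82 and a Spearman correlation of 0.79 on the log2 scale. ARF5, a small GTPase of the Golgi, followed at r = 0.78. The next were LRRC8A, a subunit of the volume-regulated anion channel (0.76), the splicing factor U2AF1 (0.76), the transcription factor TCF15 (0.73), the proton pump subunit ATP6V0B (0.73), the transcription factor SOX4 (0.73), the ribosome assembly endonuclease NOB1 (0.70), the ubiquitin ligase STUB1 (0.69) and the small GTPase RND1 (0.69). The median r over the 3664 genes was 0.08, and 7 genes passed 0.7. All these points share their libraries and the scaling to a common total.

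**Figure D4:**
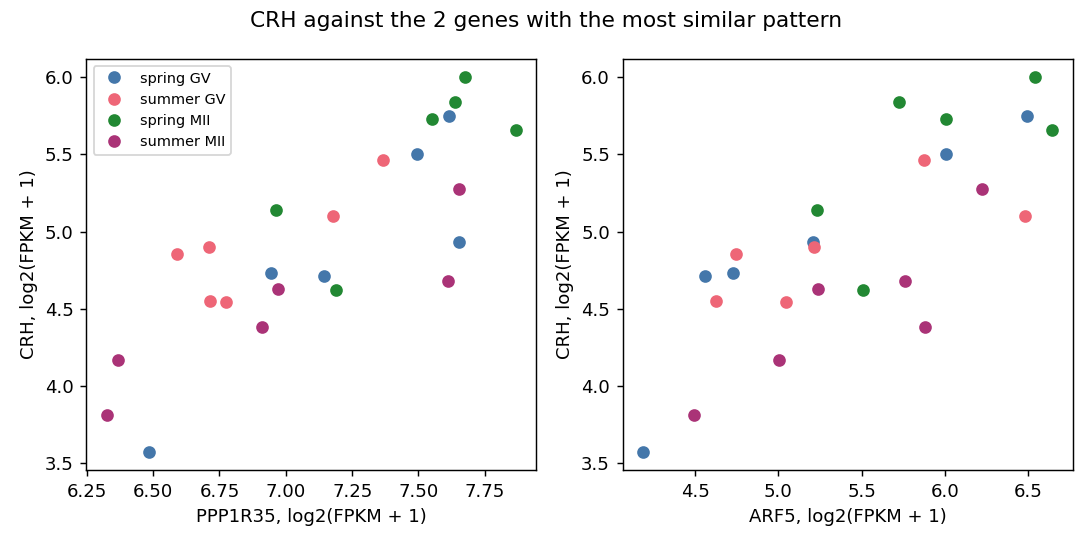
CRH (vertical axis) against PPP1R35 (left) and ARF5 (right) in 24 libraries, all on the log2(FPKM + 1) scale, coloured by group. The points rise together, with r of 0.82 for PPP1R35 and 0.78 for ARF5, and the libraries of every group are spread along the trend.

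Much of this likeness lay within the groups. After each group's mean was taken off, r was 0.83 for PPP1R35, 0.81 for ARF5, 0.81 for STUB1, 0.80 for GCAT, an enzyme of threonine breakdown, and 0.79 for REEP4, a protein of the endoplasmic reticulum. For PPP1R35, r was 0.77 over the 12 GV libraries and 0.85 over the 12 MII libraries. Spring GV replicate 3 was the lowest spring GV library for CRH, PPP1R35 and ARF5 alike. Among the summer MII libraries all 3 genes were lowest in replicate 5 and highest in replicate 1. The 10 like genes had a median listed span of 4867 bases against 9445 bases for all 3664, and 0 of the 10 lie on chromosome 14.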

How the data were processed

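RNA from pools of bovine oocytes was made into libraries with the Smart-seq2 v4 and Nextera XT kits, without molecular identifiers. After trimming, the authors mapped reads with STAR 2.5.3a on UMD3.1.1 and deposited FPKM values for 11306 entries. In every library the values summed to 86768.1 to 86768.2 FPKM and the lowest was 0.01, which shows a common scaling and an offset. Fragment totals are not part of the deposited values, so depth is given relative to 1 library.

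From these, log2(FPKM + 1) was computed for the 9526 entries over 0.1 FPKM in at least 1 of 24 libraries, and groups of 6 were compared with limma 3.58.1 in R 4.3.3, with moderation following mean expression. Calls followed the thresholds in the methods of the study, a fold change over 2 with p under 0.05 before adjustment. The study took its p values from another algorithm, Partek Flow GSA. It reported more genes between seasons and fewer between stages than were called here. Adjusted p values are Benjamini-Hochberg values over the 9526 entries. Fold changes on this scale understate those of low genes. Exact permutation tests, correlations and fragment steps used Python 3.11.15 with numpy 2.4.6, pandas 2.3.3 and scipy 1.17.1. The depth steps and the limma fits were tested on simulated data, and the permutation test on made-up values with a known answer. CRH and the gene lists were chosen with earlier results of these data known. The alternatives were another pseudocount, filters, scalings, fits and left-out libraries. Symbols at 2 loci, 29 in all, were kept as 2 entries. P values set each difference against the spread between the libraries, which were taken as independent.

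Named genes were CRH, its receptors and binding protein, called members of the other CRH system lists with NR3C1, GNAS and POMC, the 5 precursors and the 3 oocyte and 3 cumulus markers with the highest mean, the 10 genes most correlated with CRH and 5 by deviations from group means, and 3 neighbours on each side.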

Additional observations from a re-analysis of the deposited data

Results flagged for a closer look

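Of 40 sets of 6 libraries, made of 10 genes in 4 groups, 9 held a library whose distance from its nearest neighbour was over Dixon's 95% critical value as a share of the range of the group. That value allows about 1 such set in 20 only for independent, normally distributed values. These levels share their libraries and have a floor of 0.01, so the count of 9 is a description. CRH was in none of them. The TRH entry was far above the rest in spring GV replicate 6 (577 FPKM, nearest 27.8), in summer GV replicate 2 (542 FPKM, nearest 7.48) and in spring MII replicate 6 (652 FPKM, nearest 134). ADM stood apart at 92.1 FPKM in summer GV replicate 2 and at 106 FPKM in spring MII replicate 6. POMC was low in summer GV replicate 2, at 3.58 FPKM against 12.5 in the nearest library. GNAS was high in spring GV replicate 3 (1.56 FPKM) and in spring MII replicate 6 (0.721 FPKM). CRHR2 was at 0.0243 FPKM in summer MII replicate 1 and at 0.01 in the other 5 libraries of that group. The 3 shallow libraries gave 7 of the 9 sets.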

How the results depend on the processing

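The GV season difference of CRH, 0.03 on the log2 scale, was -0.12 with median-of-ratios scaling and -0.082 as a ratio of group means, and leaving out 1 library gave -0.22 to 0.21, with -0.22 without spring GV replicate 3, -0.078 without summer GV replicate 3 and -0.0049 without summer GV replicate 2. The stage difference over both seasons ran from -0.019 (without spring GV replicate 3) to 0.20, the stage difference in spring from 0.37 to 0.81 and in summer from -0.57 to -0.27. With quantile normalization they were 0.36, 0.87 and -0.14, of which 0.87 had a limma p of 0.0196 (adjusted p 0.0550) and was under 2-fold. Calls among the CRH system genes in GV season were 1 with all 4 groups in one fit and 0 to 2 with 1 library left out (2 without spring GV replicate 6, 1 without summer GV replicate 2). In MII season they were 0 throughout. In spring they were 12 with a pseudocount of 0.1, 5 without the 3 shallow libraries and 2 to 5 with 1 left out, 5 being without spring GV replicate 6. In summer they were 10 with a pseudocount of 0.1, 1 with quantile normalization and 2 to 4 with 1 left out. Among these alternatives the share of all entries called was taken only with the pseudocount of 0.1, at 27.6% in spring and 26.5% in summer. The other counts, those with the replicate block included, have no such background and are not read as changes of the system genes. A smaller pseudocount by its construction widens the fold changes of low genes, and the cause of the other shifts was not tested.

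Numbers were not taken as pairs, since the labels do not tie them to cows and not every same-numbered pair of libraries deviated together. Correlations of same-numbered deviations ran from -0.32 to 0.44 in GV season and -0.44 to 0.76 in MII season. Between stages they ran from -0.17 to 0.54 in spring and -0.28 to 0.65 in summer. The libraries that correlated best with their own number were 1, 4, 2 and 1 of 6. Whether libraries of the same number share a cow was not tested. The replicate number as a block leaves the differences of CRH unchanged by construction, at 0.03, -1.01, 0.63 and -0.41. With it the limma p values were 0.928 in GV season, 0.131 in spring and 0.0983 in summer, and 0, 0, 3 and 3 system genes were called. For the MII season difference of CRH the SE was 0.196 with the block and 0.285 without it. Neither SE allows for the choice of CRH from this difference, so they give no test of it. Depth limits spring GV replicate 6 most, where CRH rests on 52 fragments.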

Other observations

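The table gave the symbol RAB27A at 2 loci, on chromosome 10 and on chromosome 18, and in 24 of 24 libraries exactly 1 of the 2 entries was over 0.1 FPKM. The chromosome 10 entry was the one over 0.1 FPKM in 17 libraries and the chromosome 18 entry, which spans 1240 bases, in 7. The RefSeq gene table of a later assembly lists RAB27A on chromosome 10. This pattern was noticed after the values were seen, and its cause was not tested.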
